A study of Mus musculus with 4 samples.

Results

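Cell cycle genes were followed through the cell classes of the mouse ventral prostate in sham mice and in mice of a treatment group coded te2. The 34 genes were taken by symbol from a list that holds 18 genes of mitosis and its control, 15 genes of DNA replication and nucleotide supply (S phase genes) and Stmn1, which encodes a protein that destabilises microtubules. They are 34 of the 17896 genes found in the 4 tables. The list was set by symbol and not by measured values in these libraries, but it was drawn up with earlier results of these data known.

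Before a cell divides it copies its DNA in S phase and then separates the copies in mitosis. Genes of S phase, among them the MCM helicase subunits and the enzymes that make deoxynucleotides, are switched on by E2F factors as a cell commits to division, and genes of mitosis such as Cdk1 and Ccnb1 peak later. The prostate epithelium holds secretory luminal cells, basal cells and, near the urethra, a proximal luminal population, and in the adult most of these cells are at rest.

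All 4 mice were of strain C57BL6j and genotype wt, and the tissue was the ventral prostate, taken 2 weeks after hormone pellets were placed. By its title the series concerns an imbalance of steroid hormones. The groups were sham (2 mice) and te2 (2 mice). The code te2, the hormones in the pellets, what the sham pellets held and the age of the mice are not given in the sources used here. The lobes of 1 animal were pooled into 1 library, so each library is 1 animal, and 7000 cells were loaded per library on a droplet platform that counts unique molecular identifiers (UMIs) at the 3' end of transcripts.

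The tables held 11245 cells with 3999690 and 5513275 UMIs for sham replicates 1 and 2. The te2 replicates had 12259610 and 13134017. Cells with at least 500 UMIs and at most 20% mitochondrial counts were kept, which left 8091, at a median depth per cell of 1204 and 1722 UMIs (sham) or 3427 and 4075 UMIs (te2). Between pairs of libraries, 7 kept cell barcodes were shared. Cells were placed in classes by gates on the share of their UMIs from a few genes, none of them a cell cycle gene, in a fixed order. The luminal gate required at least 10% from Sbp and Spink1, the basal gate 0.2% from Krt5, Krt14 and Krt15, the fibroblast gate 0.3% from Col1a2, Col3a1 and Dcn, the macrophage gate 0.3% from C1qa, C1qb and C1qc, and the proximal gate 0.1% from Krt4, Wfdc2 and Cxcl17. The luminal gate held 1057 and 1292 sham cells and 392 and 485 te2 cells, and the proximal gate 35 and 169 sham cells and 636 and 376 te2 cells. The basal gate held 44 and 160 sham cells and 591 and 573 te2 cells, of which 251 and 310 te2 cells passed more than 1 gate. Fibroblast cells numbered 86 to 237 and macrophage cells 56 to 103 per library, and 209 to 516 cells per library passed no gate.

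Markers outside the gates were checked for each class. Of the fibroblast markers, 3 of 3 were highest in their own gate in all 4 libraries, as were 4 of 4 for macrophages, 2 of 3 for basal cells, 3 of 6 for proximal cells and 1 of 5 for luminal cells (Trpv6). Dsc3 was at 0 in basal cells of both sham libraries and Psca at 0 in proximal cells of sham replicate 1. Sbp and Spink1 made up a median of 1.68% to 4.93% of UMIs in cells of the other 4 gates in sham and 0.122% to 0.517% in te2, and the part of such luminal RNA in the values of those gates was not tested. The class names below stand for the gates, and for luminal cells the gate genes carry the name.

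Luminal cells showed the most cell cycle genes that differed between the groups. In edgeR's quasi-likelihood test on UMI counts summed per library, 32 of the 34 genes passed the filter on low counts, and 12 were higher in te2 and 0 were lower at an adjusted p of 0.05 (false discovery rate, FDR). Of all 10976 genes tested in luminal cells, 18% were higher and 14.1% lower, so the share of members that were higher lay above the background and that of members that were lower below it. The 12 were 7 of 16 tested mitotic genes, 4 of 15 S phase genes and Stmn1. The median log2 change of the tested members was 0.60, beside -0.01 for all genes tested. DESeq2 called 3 of the 34 (Cdk1, Tyms and Ube2c, all higher), gave 10 an unadjusted p under 0.05 and gave 6 no adjusted p. EdgeR gave 17 such an unadjusted p. Of all 17001 genes DESeq2 took, 6.52% were called higher and 3.25% lower. Both bases, the 34 and the 17001, hold genes given no adjusted p, which could not be called. On these bases the share of members was near the background, and the share among genes with an adjusted p was not compared. Aurka and Bub1 did not pass the filter, and Bub1 was not listed in the table of sham replicate 1, so it was entered as 0 there.

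The 4 luminal genes with the smallest p were Tyms, Stmn1, Cdk1 and Ube2c. Promoter windows of the 250 bases before the annotated start are shown for 3 of them, since they head the list and stand for the S phase (Tyms) and mitotic (Cdk1, Ube2c) genes. The sequences are RefSeq's, on build GRCm38.p6 at chr5:30073626-30073875 (minus strand) for Tyms, chr10:69352913-69353162 (minus strand) for Cdk1 and chr2:164769679-164769928 (plus strand) for Ube2c. They are written 5′ to 3′ in the gene's direction, and capitals mark the CHR element TTTGAA and the box CCAAT on either strand (TTCAAA and ATTGG when read on the other).
Tyms: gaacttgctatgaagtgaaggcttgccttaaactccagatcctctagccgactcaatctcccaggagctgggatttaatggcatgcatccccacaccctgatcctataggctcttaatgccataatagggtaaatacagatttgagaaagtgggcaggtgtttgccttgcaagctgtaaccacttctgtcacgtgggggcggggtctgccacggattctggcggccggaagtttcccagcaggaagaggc
Cdk1: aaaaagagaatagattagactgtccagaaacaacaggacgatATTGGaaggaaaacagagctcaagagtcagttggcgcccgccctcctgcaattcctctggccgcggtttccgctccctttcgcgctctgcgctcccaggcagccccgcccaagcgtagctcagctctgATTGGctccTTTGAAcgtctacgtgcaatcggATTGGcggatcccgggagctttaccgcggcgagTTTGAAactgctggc
Ube2c: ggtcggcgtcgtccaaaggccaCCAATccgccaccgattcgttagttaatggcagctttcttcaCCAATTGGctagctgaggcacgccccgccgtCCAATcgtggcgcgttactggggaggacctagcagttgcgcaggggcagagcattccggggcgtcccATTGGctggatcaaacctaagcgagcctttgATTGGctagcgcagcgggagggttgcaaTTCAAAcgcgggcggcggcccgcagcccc
The Cdk1 window held 2 CHR matches and 3 CCAAT matches, the Ube2c window 1 and 6, with CCAATTGG counted on both strands, and the Tyms window none of either. Across the 29 members with a RefSeq window, CHR was found in 6 of 16 mitotic and 1 of 13 S phase genes, against 18.3% of all genes. CCAAT was found in 14 of 16 mitotic and 9 of 13 S phase genes, against 37.5% of all genes. E2F motifs (tttggcgc, tttcccgc, ttcccgcc or tttggcgg, both strands) were found in 0 of 16 mitotic and 7 of 13 S phase genes, against 3.53% of all genes. Of these, Hells was among the luminal calls, while Cdc6, Mcm5, Mcm6, Mcm7, Rrm1 and Uhrf1 were not. A match describes letters in the window and no binding was measured.

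**Figure D1:**
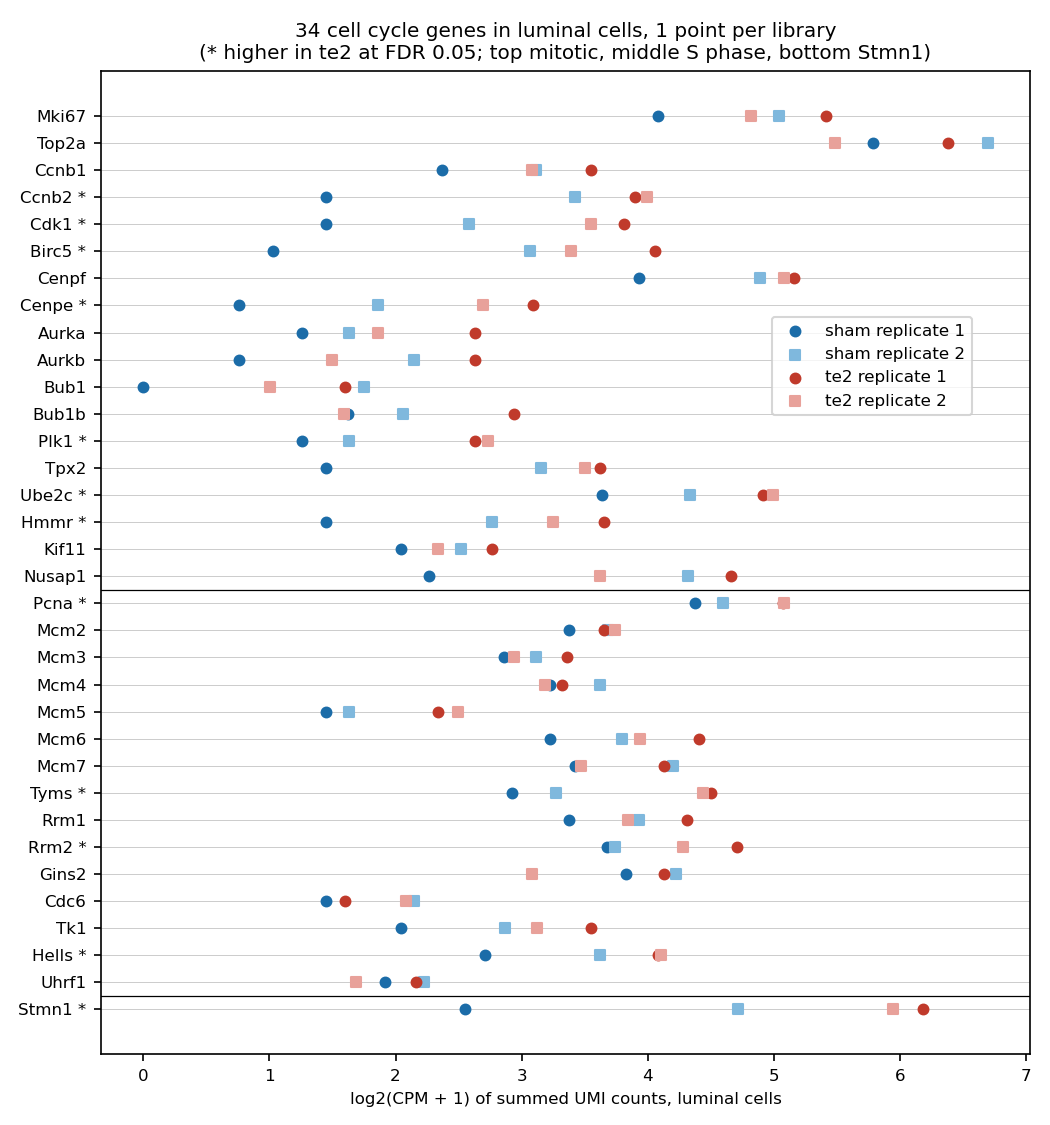
Level of the 34 genes in luminal cells. The x axis is log2(CPM + 1) of UMI counts summed per library, each row is a gene (mitotic, then S phase, then Stmn1) and each point is 1 library. Sham replicate 1 (dark blue circles) was below sham replicate 2 for all 34 genes, and asterisks mark the 12 genes higher in te2.

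Among the S phase genes, Tyms, which encodes thymidylate synthase, had the smallest p. Levels are given as CPM, the UMI count of a gene scaled to a common library total with TMM factors, for replicates 1 and 2 in that order. In luminal cells Tyms was at 6.60 and 8.69 CPM in sham, against 21.7 and 20.6 CPM in te2. Both te2 values stood well above both sham values. The log2 change was 1.44 ± 0.24 (SE, 2 against 2 libraries; edgeR adjusted p = 0.000461). Rrm2, the regulated small subunit of ribonucleotide reductase, stood at 11.8 and 12.4 CPM in sham and 25.2 and 18.4 in te2, a log2 change of 0.82 ± 0.23 (edgeR adjusted p = 0.0138). Its partner Rrm1, the large subunit, stood at 9.37 and 14.2 CPM in sham and 18.8 and 13.3 in te2. For Rrm1 the groups overlapped and the test was not passed (log2 change 0.40 ± 0.27, edgeR adjusted p = 0.282).

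Pcna, the sliding clamp of DNA polymerase, was at 19.8 and 23.2 CPM in sham and at 32.7 in both te2 libraries (log2 change 0.60 ± 0.17, edgeR adjusted p = 0.0172). Hells, a chromatin remodeller needed for DNA methylation, was at 5.55 and 11.3 CPM in sham and 15.9 and 16.2 in te2 (log2 change 0.88 ± 0.29, edgeR adjusted p = 0.0340). For both genes the te2 libraries lay close together and above both sham libraries. The 6 MCM subunits, which form the replicative helicase, gave no call: their log2 changes ran from -0.23 (Mcm4) to 1.16 (Mcm5). Of the MCM genes, Mcm5 and Mcm6 had both te2 libraries above both sham libraries, with edgeR adjusted p = 0.0668 for Mcm5 and 0.0815 for Mcm6. Gins2, a helicase cofactor, had the lowest value of all members, -0.44 ± 0.32 (edgeR adjusted p = 0.328). Tk1, the thymidine salvage kinase, had both te2 libraries higher and missed the threshold (log2 change 0.88 ± 0.37, edgeR adjusted p = 0.0823). Cdc6, which loads the helicase, and Uhrf1, which guides maintenance methylation, had overlapping groups and log2 changes of 0.02 and -0.24.

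Among the mitotic genes, Cdk1, the kinase that drives entry into mitosis, had the smallest p. It was at 1.74 and 5.001 CPM in sham and 13.0 and 10.7 in te2, from 5, 19, 45 and 53 UMIs. The groups did not overlap, and the log2 change was 1.72 ± 0.38 (edgeR adjusted p = 0.00387). Its cyclin partner Ccnb2 was at 1.74 and 9.74 CPM in sham and 13.9 and 15.0 in te2 (log2 change 1.23 ± 0.42, edgeR adjusted p = 0.0389). The other B cyclin, Ccnb1, was at 4.17 and 7.63 CPM in sham and 10.7 and 7.48 in te2. Its groups overlapped and it did not pass the test (log2 change 0.55 ± 0.35, edgeR adjusted p = 0.249).

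Ube2c, the ubiquitin-conjugating enzyme of the anaphase-promoting complex, was at 11.5 and 19.2 CPM in sham and 29.2 and 30.9 in te2 (log2 change 0.94 ± 0.22, edgeR adjusted p = 0.00499). Plk1, a mitotic kinase, was at 1.39 and 2.11 CPM in sham and 5.21 and 5.66 in te2 (log2 change 1.59 ± 0.45, edgeR adjusted p = 0.0152). Both had te2 libraries that differed little from each other. Cenpe, a kinetochore motor, was at 0.694 and 2.63 CPM in sham and 7.52 and 5.46 in te2 (log2 change 1.82 ± 0.50, edgeR adjusted p = 0.0132). Hmmr, a spindle protein that also binds hyaluronan, was at 1.74 and 5.79 CPM in sham and 11.6 and 8.49 in te2 (log2 change 1.30 ± 0.42, edgeR adjusted p = 0.0277). Birc5, the survivin subunit of the chromosomal passenger complex, was at 1.04 and 7.37 CPM in sham and 15.6 and 9.50 in te2 (log2 change 1.43 ± 0.48, edgeR adjusted p = 0.0367). In Birc5, Ccnb2, Cenpe and Hmmr, sham replicate 1 was far below sham replicate 2.

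The 2 genes most used as marks of proliferation were not called. Mki67, which coats mitotic chromosomes, was at 16.0 and 31.9 CPM in sham and 41.7 and 27.3 in te2, so te2 replicate 2 lay below sham replicate 2 (log2 change 0.47 ± 0.27, edgeR adjusted p = 0.199). Top2a, the topoisomerase that untangles sister DNA, was at 54.2 and 102.7 CPM in sham and 82.2 and 43.7 in te2. Its highest library was a sham one and its lowest a te2 one, and the log2 change was -0.36 ± 0.28 (edgeR adjusted p = 0.352). Cenpf, a kinetochore protein, and Tpx2, a spindle assembly factor, had te2 libraries above both sham libraries and missed the threshold (edgeR adjusted p = 0.0659 for Cenpf and 0.0716 for Tpx2). Aurkb, Bub1b, Kif11 and Nusap1 had overlapping groups and log2 changes between 0.26 and 0.59.

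Stmn1 was at 4.86 and 25.3 CPM in sham and 71.7 and 60.6 in te2 luminal cells. It had the largest log2 change of the tested members, 2.04 ± 0.36 (edgeR adjusted p = 0.000665), and its sham libraries differed from each other more than its te2 libraries did.

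Of the tested members, 17 had both te2 libraries above both sham libraries in luminal cells and 0 had both below, where 34.2% and 33% of all genes tested did so. The level of all 34 genes was higher in sham replicate 2 than in sham replicate 1, and 26 of 34 were higher in te2 replicate 1 than in te2 replicate 2. Summed over the 34 genes, the level was 244 and 455 CPM in sham and 615 and 469 CPM in te2. On that sum te2 replicate 2 was close to sham replicate 2, and the spread between the 2 sham animals was of the same order as that between the groups.

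The luminal calls depended on sham replicate 1. Without it, only Cdk1, Rrm2, Stmn1, Tyms and Ube2c were called higher. The share of members that were higher was then not above that of all genes tested. The log2 changes of the 12 genes ran from 0.51 (Pcna and Hells) to 1.39 (Stmn1). Top2a was called lower, with a log2 change of -0.73 ± 0.20. Without sham replicate 2, the changes of the 12 genes ran from 0.73 (Pcna) to 3.76 (Stmn1). Mki67 was then called higher, with a log2 change of 1.09 ± 0.26. Without te2 replicate 1, the changes of the 12 genes ran from 0.61 (Pcna) to 1.94 (Stmn1), and Top2a (-0.84) and Gins2 (-1.04) were called lower. Without te2 replicate 2, they ran from 0.59 (Pcna) to 2.16 (Stmn1). Cdk1 and Tyms passed the test in all 17 alternative settings, with log2 changes from 1.23 to 2.74 for Cdk1 and from 1.04 to 1.68 for Tyms. Stmn1 passed in 16 of 17, all but DESeq2.

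**Figure D2:**
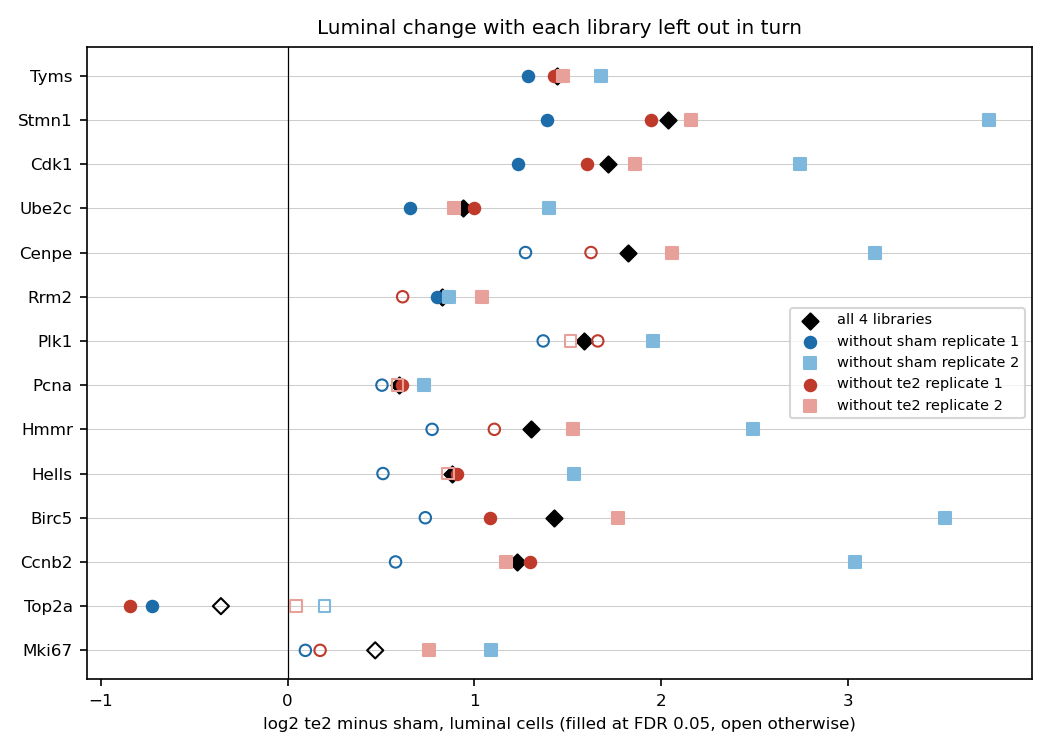
Luminal log2 change, te2 minus sham (x axis), of the 12 called genes and of Top2a and Mki67, with all 4 libraries (black) and with each library left out. Filled marks passed FDR 0.05 and open marks did not. Leaving out sham replicate 1 (dark blue) brought the changes down, and Top2a turned from -0.36, not called, to -0.73, called.

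Depth, red blood cell RNA and proximal markers moved with the groups in luminal cells. A luminal cell had a median of 1551 and 2455 UMIs in the sham replicates, against 8266 and 10359 in te2. The summed level of 4 haemoglobin genes was 442 to 1242 CPM in sham and 6.06 to 16.2 in te2. Of 9 proximal luminal markers 8 were higher in both te2 libraries, with a summed level of 305 to 323 CPM in sham and 2366 to 2442 in te2 and none at 0. The part of the proximal and red cell RNA in the result was not tested. With the class sums thinned to the smallest total, 10 of 29 tested members were higher, where 17.3% of all genes tested were. Among luminal cells with at least 3000 UMIs, 9 of 28 were, beside 18.6% of all genes. With every gate at 2 times its threshold, 7 of 26 tested members were higher in the luminal gate (Ccnb2, Cdk1, Hells, Pcna, Stmn1, Tk1 and Tyms). Of all genes tested in that setting, 16.1% were higher.

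Other genes of the same programmes, from lists that exclude the 34, were counted the same way. In luminal cells, 4 of 32 tested genes of the other S phase list of 39 were higher (Dut, Wdr76, Gmnn and Rad51ap1), and 5 of 32 of the other mitotic list of 41 (Smc4, Hmgb2, Cdca8, Spc25 and Cdca3). None of either was lower. Their median log2 changes were 0.22 and 0.35, and both counts were below the 18% of all genes that were higher. Dut, which removes dUTP from the nucleotide pool, was at 12.5 and 16.8 CPM in sham and 46.3 and 37.0 in te2 (log2 change 1.47 ± 0.20, edgeR adjusted p = 9.72e-05). Smc4, a condensin subunit, was at 13.5 and 17.6 CPM in sham and 34.1 and 30.1 in te2 (log2 change 1.02 ± 0.19, edgeR adjusted p = 0.00131).

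In proximal cells, 21 of the 34 genes were tested, 2 were higher and 0 lower. Of all 10068 genes tested there, 5.53% were higher and 4.78% lower, so the share of members called was close to the background. Cenpf was at 0 and 5.42 CPM in sham and 50.8 and 21.7 in te2 (log2 change 3.07 ± 0.78, edgeR adjusted p = 0.00379). The sham value rests on 2 UMIs against 255 in te2, and the ratio of the summed counts was 8.64 (exact 95% interval 2.37 to 71.7, counting error only). Stmn1 was at 11.8 and 13.6 CPM in sham, from 1 and 5 UMIs, and 55.2 and 35.5 in te2 (log2 change 1.80 ± 0.52, edgeR adjusted p = 0.0129). For both genes the te2 libraries lay above the sham libraries. DESeq2 did not call Stmn1 and gave Cenpf, with 27 of 34 members lacking one, no adjusted p. Neither gene passed without sham replicate 1 or without sham replicate 2. Without te2 replicate 1 Cenpf was not tested, and no tested member was called. Rrm2 had 0 UMIs in both sham proximal libraries and 39 and 28 in te2, which was at least 1.51-fold higher when the sham group is set to a floor of 3 counts (edgeR adjusted p = 0.0646). Tpx2 had 0 UMIs in sham and 38 and 20 in te2, at least 1.31-fold higher (edgeR adjusted p = 0.0931). Rrm2 and Tpx2 passed the filter on low counts through te2 alone, so their p-values are no support for a difference. Members with 0 sham UMIs that were not tested had bounds from 0.181-fold (Cdc6) to 1.56-fold (Ccnb2) against the same floor. Mki67 was at 59.1 and 29.8 CPM in sham and 45.4 and 34.8 in te2 proximal cells, with overlapping groups (log2 change 0.18 ± 0.40). Of the other S phase list, Dut passed the test in proximal cells (log2 change 1.37 ± 0.41, edgeR adjusted p = 0.0185), although sham replicate 1, at 59.1 CPM, lay within the te2 values. The other mitotic list gave 0 of 19 there. Markers of other cells also moved in the proximal gate. The summed level of 6 basal markers was 54.1 to 108 CPM in sham and 358 to 460 in te2, that of 7 macrophage markers 0 to 28.2 in sham and 48.1 to 148 in te2, and that of 4 erythroid markers 223 to 365 in sham and 14.4 to 161 in te2. Their part in the proximal values was not tested.

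In basal cells, 19 of the 34 genes were tested, 0 were higher and 1 was lower, where 4.94% of all genes were higher and 2.77% lower. Mki67 was at 96.0 and 92.6 CPM in sham and 29.1 and 31.0 in te2, and the groups did not overlap (log2 change -1.63 ± 0.44, edgeR adjusted p = 0.0143). The sham values rest on 5 and 16 UMIs. The call was lost under 8 of 14 alternatives, among them DESeq2, sham replicate 2 left out, either te2 library left out and cells that passed more than 1 gate left out, while the log2 change stayed between -1.73 and -1.48. Mcm3 followed at 19.2 and 63.6 CPM in sham and 8.78 and 20.7 in te2 (log2 change -1.81 ± 0.62, edgeR adjusted p = 0.0587). It was called lower as a second gene without called doublets and with at most 10% mitochondrial counts. Stmn1 was at 38.4 and 69.4 CPM in sham and 110 and 150 in te2, with both te2 libraries above sham (log2 change 1.07 ± 0.40, edgeR adjusted p = 0.0880). Rrm2 had 0 UMIs in both sham libraries and 30 in each te2 library, at least 1.40-fold higher against the floor of 3 counts (edgeR adjusted p = 0.0894). It passed the filter on low counts through te2 alone, so its p is no support for a difference. The summed level of 6 basal markers was 4461 to 4852 CPM in sham and 9424 to 12435 in te2, and that of the luminal markers 34714 to 35154 in sham and 2985 to 6132 in te2. The 9 proximal luminal markers summed to 309 to 890 CPM in sham and 2320 to 2603 in te2, and for 7 of the 9 the te2 values lay above the sham values. Their part in the basal values was not tested.

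In fibroblast cells, 2 members passed the filter (Top2a and Pcna) and in macrophage cells 1 (Pcna). None of these was called by edgeR, and 0 had an unadjusted p under 0.05 with edgeR. Of all genes tested, 2.07% in fibroblasts and 3.68% in macrophages were called. DESeq2 called no member, but it gave no adjusted p to 32 of 32 members in fibroblasts and 31 of 32 in macrophages. It could not call those. Top2a in fibroblast cells was at 15.9 and 50.4 CPM in sham and 97.8 and 0 in te2. Its highest and its lowest library were both te2 libraries, and in the highest 18 of the 21 UMIs came from 1 cell. These classes were too thinly sampled for the other members: differences in them were not detectable at this depth.

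**Figure D3:**
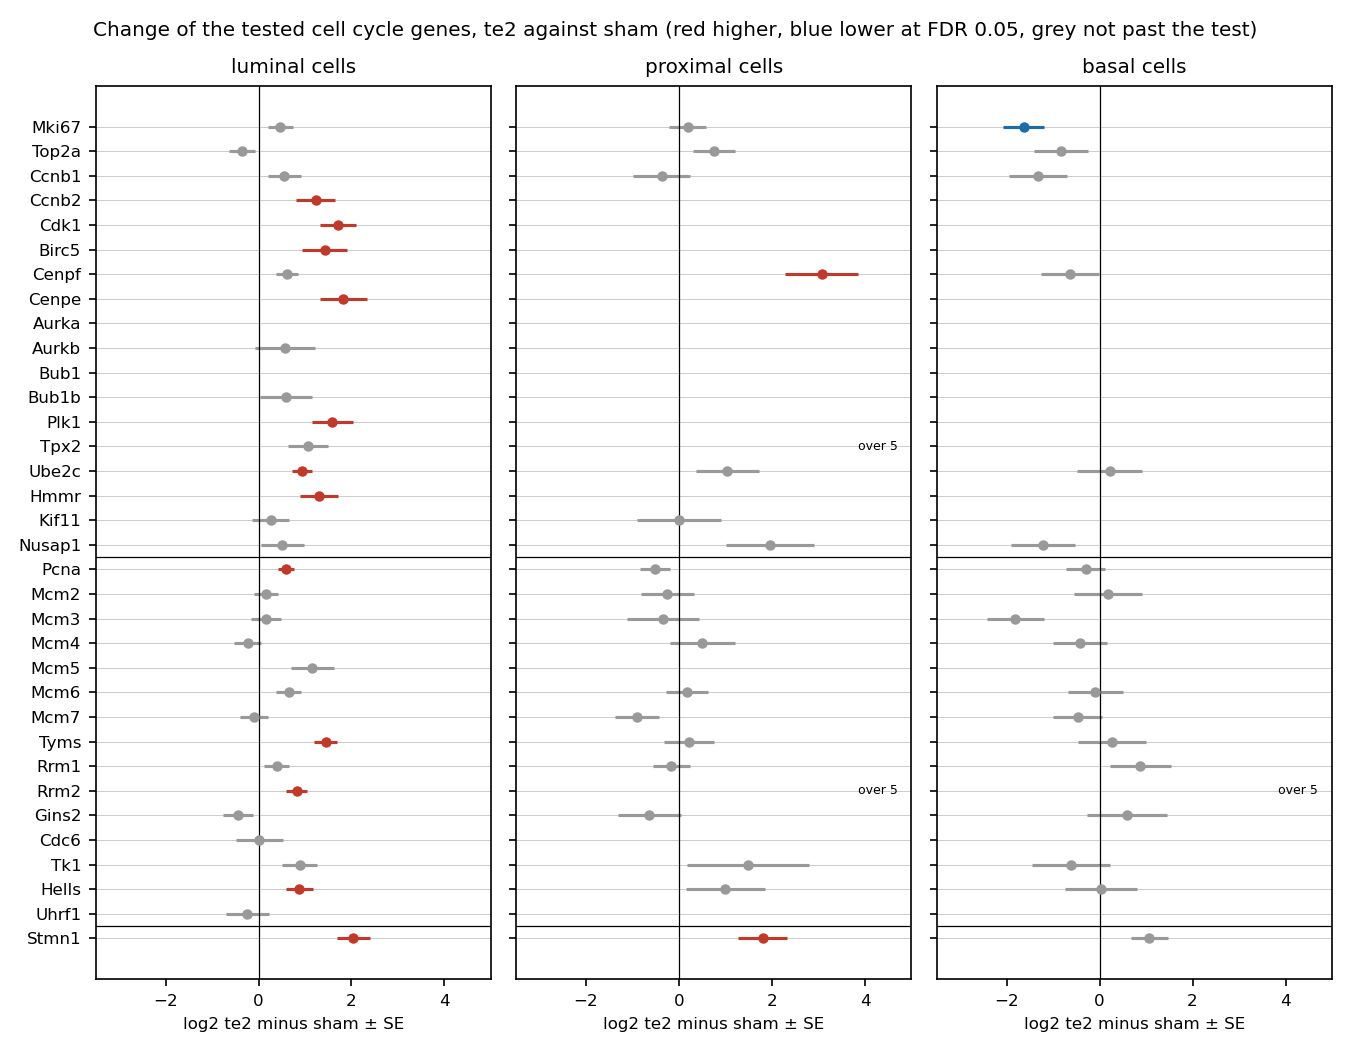
Log2 change, te2 minus sham, with its SE (x axis) of each tested gene (rows) in luminal, proximal and basal cells. Red marks were higher and blue marks lower at FDR 0.05, grey marks did not pass, blank rows were not tested, and "over 5" marks genes with 0 UMIs in both sham libraries, whose fitted value is no estimate of size. Luminal cells held 12 of the 15 calls, proximal cells 2 and basal cells 1.

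Whether the response differed between classes was tested in 1 fit of all class sums, with the library as a block, in which 10 members were tested. No member's response in basal, fibroblast, macrophage or proximal cells differed from that in luminal cells at FDR 0.05, where 1.28%, 2.84%, 0.946% and 5.16% of all genes did. At an unadjusted p under 0.05 edgeR gave 2, 1, 2 and 3 members. DESeq2 was not run on this fit. The smallest adjusted values were for Cenpf in proximal cells, whose change was higher than the luminal one by 2.74 ± 0.87 on the log2 scale (edgeR adjusted p = 0.0573), and for Mki67 in basal cells, with a difference of -1.91 ± 0.54 (edgeR adjusted p = 0.0768). Without te2 replicate 2, each of these 2 passed. Of the 12 genes called in luminal cells, 2 (Pcna and Stmn1) were among these 10, and whether the response of the other 10 differed between classes was not tested. The classes differed in the number of cells and of genes tested.

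In the same fit, each class was compared with the mean of the other 4 over both groups. Luminal cells had higher Top2a (log2 difference 1.65 ± 0.20, edgeR adjusted p = 4.19e-09), Cenpf (1.29 ± 0.23, edgeR adjusted p = 9.33e-06) and Mki67 (1.06 ± 0.25, edgeR adjusted p = 0.000363), and lower Mcm4 (-0.89 ± 0.26, edgeR adjusted p = 0.00333) and Pcna (-0.57 ± 0.15, edgeR adjusted p = 0.00105). That was 3 of 10 higher and 2 of 10 lower, where 32.8% and 18.8% of all genes were. Scaled by library totals without TMM factors, 2 were higher and 6 lower, and Mki67 was no longer among the calls. Without sham replicate 2, Cenpf and Top2a alone were called, without te2 replicate 1 Cenpf was lost, and without te2 replicate 2 Mcm4 was lost.

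By library totals alone, Top2a was at 52.5, 102, 85.4 and 43.7 CPM in luminal cells of sham replicates 1 and 2 and te2 replicates 1 and 2, and at 0, 30.8, 51.0 and 31.7 in proximal cells. In each library the luminal value was the higher of the 2. Luminal Top2a was not the highest in every library: fibroblast cells were at 100 CPM in te2 replicate 1. Cells that passed no gate were at 89.5 in sham replicate 1 and 71.1 in te2 replicate 2. Luminal Mki67 (15.5, 31.6, 43.3 and 27.3 CPM) was above basal Mki67 (110, 87.3, 27.8 and 29.9) in te2 replicate 1 alone. Proximal Cenpf was at 48.1 CPM in te2 replicate 1, above luminal cells at 36.1, and lower than luminal cells in the other libraries. Pcna was at 19.2, 23.0, 33.97 and 32.7 CPM in luminal cells and at 59.4, 96.8, 87.3 and 78.5 in macrophage cells. For Pcna every luminal library lay below every macrophage library.

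Basal cells had higher Mki67 (1.10 ± 0.34, edgeR adjusted p = 0.0121) and Stmn1 (1.01 ± 0.34, edgeR adjusted p = 0.0218), 2 of 10 where 15.5% of all genes were higher, and neither was called without sham replicate 1, without sham replicate 2 or without te2 replicate 2, where Top2a was called lower. Macrophage cells had higher Mcm3 (1.92 ± 0.56, edgeR adjusted p = 0.00594), 1 of 10 where 15.6% of all genes were higher, a call that was lost without sham replicate 1. Proximal cells had lower Stmn1 (-1.23 ± 0.36, edgeR adjusted p = 0.00715) and Mcm4 (-1.21 ± 0.37, edgeR adjusted p = 0.00963), 2 of 10 where 11.5% of all genes were lower, and neither was called without sham replicate 2. Mcm4 was also lost there without te2 replicate 2. Fibroblast cells had 0 of 10 calls with edgeR and 3 at an unadjusted p under 0.05, where 36.2% of all genes were called, and Top2a was called lower there without te2 replicate 1. With 10 members tested, nothing is read from the distance of these counts to the background. The basal Mki67 difference averages both groups. By library totals basal Mki67 was at 110 and 87.3 CPM in sham, from 5 and 16 UMIs. In te2 it was at 27.8 and 29.9 CPM, below proximal cells (43.0 and 33.9) and above macrophage cells (6.71 and 0). Luminal (43.3 and 27.3) and fibroblast (33.5 and 0) values lay on both sides of it in te2.

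Cells that carried several cell cycle transcripts were counted as those with at least 3 UMIs of Mki67, Top2a, Cenpf, Birc5 and Cdk1 together. Of 8091 kept cells, 16 and 48 were counted so in sham mice and 86 and 87 in te2 mice. In luminal cells they made up 1.23% and 2.94% in sham (13 and 38 cells) and 8.16% and 7.42% in te2 (32 and 36 cells), with exact 95% binomial intervals of 0.656% to 2.09%, 2.09% to 4.01%, 5.65% to 11.3% and 5.25% to 10.1%. Both te2 libraries stood above both sham libraries, and te2 cells held several times the UMIs of sham cells. Thinned to 1000 UMIs per cell, with 406 and 280 sham and 22 and 25 te2 luminal cells left out as too shallow, the shares were 0.307% and 1.19% in sham and 1.08% and 0.652% in te2. In this 1 random draw the groups overlapped (difference 0.120 percentage points, exact permutation test over libraries, two-sided, p = 1, adjusted over 5 classes 1). With 2 libraries against 2 the exact permutation test cannot go below p = 0.33. Thinned to 2000 UMIs, the luminal shares were 0.209% and 2.16% in sham and 3.39% and 0.899% in te2, which also overlapped. The shares expected over all draws at 1000 UMIs were 0.262% and 1.25% in sham and 1.63% and 0.526% in te2. On these, and at 2000 UMIs, te2 replicate 1 was above both sham libraries and te2 replicate 2 lay between them.

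In proximal cells the full-depth shares were 0% and 1.18% in sham and 3.93% and 4.26% in te2. By the rule of 3 counts over the number of cells, the 0 of 35 cells in sham replicate 1 allows a share of up to 8.57% (upper bound of the exact 95% interval 10.0%). Thinned to 1000 UMIs, with 10 and 40 sham and 57 and 25 te2 cells left out, they were 0% of 25 and 0% of 129 cells in sham, which by the same rule allows up to 12% and 2.33% (exact upper bounds 13.7% and 2.82%), and 1.21% and 0.285% in te2 (exact permutation p = 0.33, adjusted over 5 classes 1). The te2 values were above 0 but within what the sham counts of 0 allow in either library. In basal cells the full-depth shares were 0% and 1.25% in sham and 0.677% and 1.05% in te2, and in fibroblast cells 0%, 1.02%, 1.16% and 0%. In macrophage cells they were 0%, 1.75%, 0.971% and 1.28%, each from at most 1 cell. The full-depth share in te2 luminal cells was above all of these, at a median depth of 8266 and 10359 UMIs against 1874 to 2652 in the te2 cells of these 3 classes. Among cells that passed no gate the shares were 1.44% and 1.66% in sham and 4.46% and 5.98% in te2 at full depth, and 2.56%, 0.662%, 1.24% and 1.32% after thinning to 1000 UMIs. Those cells held 58 of the 237.

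**Figure D4:**
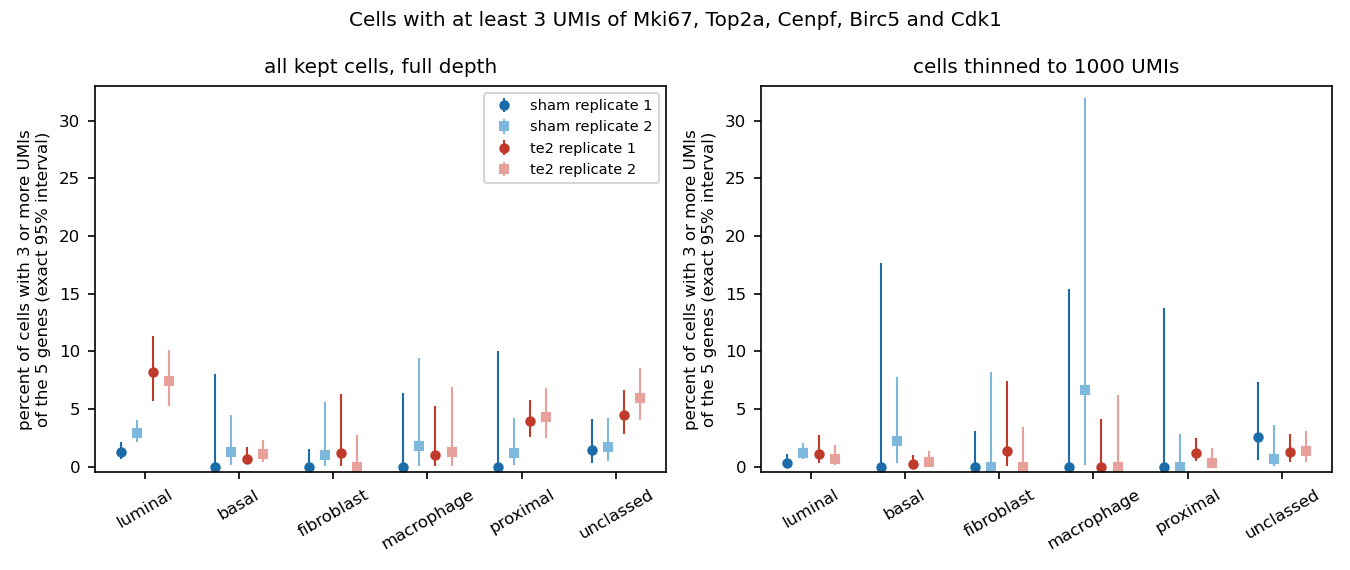
Percent of cells with at least 3 UMIs of Mki67, Top2a, Cenpf, Birc5 and Cdk1 (y axis) by class (x axis), at full depth (left) and after thinning to 1000 UMIs (right). Each point is 1 library with its exact 95% binomial interval. Luminal te2 libraries stood at 8.16% and 7.42% at full depth and at 1.08% and 0.652%, between the sham libraries, in the random draw shown.

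In luminal cells the 29 genes that the count did not use followed it: 27 of 29 had a higher level in the counted cells than in the rest in all 4 libraries, all but Bub1 and Mcm5. In proximal cells 10 of 29 did so in the 3 libraries with counted cells, and in cells that passed no gate 16 of 29 in all 4. In sham replicate 1, with 13 counted luminal cells, Ccnb1, Cenpe, Aurkb, Bub1b and Tyms each had 1 UMI in the counted cells. A counted luminal cell carried a median of 2, 7.5, 9.5 and 8 of these 29 genes (sham replicates 1 and 2, te2 replicates 1 and 2). Sham replicate 1 was the lowest. Of the counted luminal cells, 3 of 13 and 7 of 38 in sham and 1 of 32 and 4 of 36 in te2 carried none of the 29, and 4, 7, 3 and 5 were counted on Top2a alone. The counted cells were also deeper than the rest, with medians of 6312 and 4444 UMIs against 1454 and 2365 for sham, and of 10755 and 15017 against 8109 and 9997 for te2. The part of depth in these gene counts was not tested. Luminal gate genes made up a median of 29.7% and 23.3% of UMIs in the counted sham cells and 17.98% and 22.6% in the counted te2 cells. Of the counted cells, 3 of 237 were called doublets.

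The part of a gene's UMIs that lay in these cells varied by gene and library. Of all luminal Stmn1 UMIs, 50% and 60.4% in sham and 66.9% and 68.7% in te2 lay in the counted cells. For Ube2c the shares were 6.06% and 50.7% in sham and 62.4% and 74.5% in te2, and for Tyms 5.26% and 30.3% in sham and 41.3% and 47.1% in te2. For these 3 genes both te2 shares were above both sham shares. The same held for 11 of the 15 genes outside the count that had at least 10 UMIs in every library, while Pcna, Mcm3, Mcm6 and Hells overlapped. Pcna, for example, had 14.0% and 36.4% in sham and 48.7% and 29.6% in te2. The counted cells made up 8.16% and 7.42% of luminal cells in te2 and 1.23% and 2.94% in sham. A gene spread evenly over cells would thus also have higher te2 shares, and the share over all genes was not computed. The order of the groups is therefore not read as a trait of these genes. The count is a fixed number of UMIs and te2 luminal cells were deeper, and the part of depth in the shares was not tested. For Top2a they were 32.7% and 51.8% in sham and 76.8% and 61.6% in te2, but the count used Top2a itself.

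**Figure D5:**
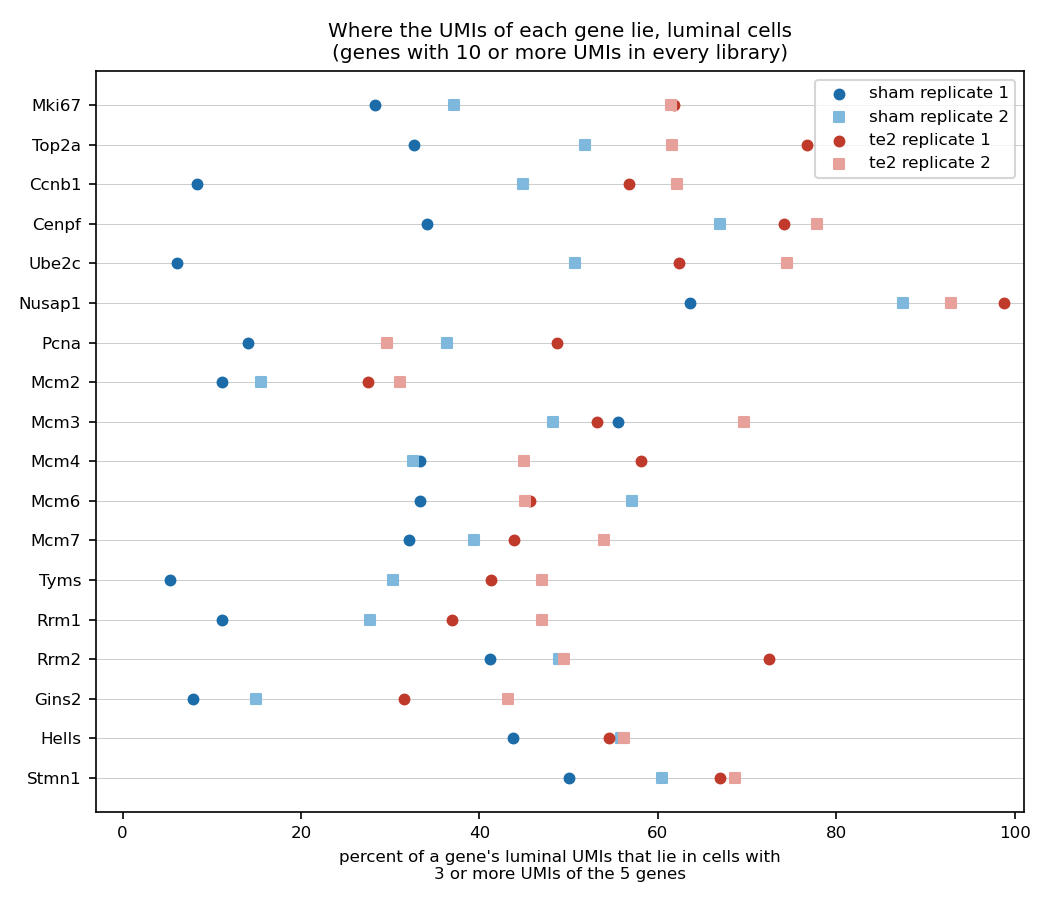
Percent of a gene's luminal UMIs that lay in cells with at least 3 UMIs of the 5 counted genes (x axis), for genes (rows) with at least 10 UMIs in every library, 1 point per library. Ube2c ran from 6.06% in sham replicate 1 to 74.5% in te2 replicate 2, and Mki67, Top2a and Cenpf are among the 5 genes that define the count.

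With the counted cells left out of every class, 19 members were tested in luminal cells, of which 3 were higher (Cdk1, Stmn1 and Tyms) and 1 lower (Top2a). Of all 10738 genes tested there, 17.9% were higher and 14.1% lower, so the share of members that were higher was close to the background. The Ube2c change went from 0.94 to -0.01, and neither proximal call was left. That setting was chosen after seeing the data, and it removes cells by 5 of the member genes, so it is no independent test of those 5. It took out 8.16% and 7.42% of te2 luminal cells and 1.23% and 2.94% of sham ones. With them went 62.4% and 74.5% of the luminal Ube2c UMIs in te2 and 6.06% and 50.7% in sham. In proximal cells it took out 3.93% and 4.26% in te2 and 0% and 1.18% in sham. A smaller change of other members was thus partly built into the setting, and nothing is read from it.

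Top2a was set beside Cdk1 within each library, a pair chosen after their values were seen. In luminal cells there were 31.2 and 20.5 Top2a UMIs for each Cdk1 UMI in sham (exact 95% intervals 13.1 to 97.4 and 13.0 to 34.5) and 6.31 and 4.08 in te2 (4.596 to 8.85 and 3.01 to 5.61). The intervals cover counting error only and take UMIs as independent, while 1 luminal cell held up to 36 Top2a UMIs, so they say nothing of the spread between animals. In proximal cells the ratio was 6.00 in sham replicate 2, from 12 and 2 UMIs, and 5.65 and 6.21 in te2. In cells that passed no gate it was 9.33 and 38.0 in sham (from 3 and 1 Cdk1 UMIs) and 9.41 and 5.29 in te2, with overlapping groups. Luminal cells in which Top2a was the single member detected held 31.4% and 26.7% of the Top2a UMIs in sham and 7.75% and 15.3% in te2. Both sham shares were above both te2 shares. That order was not particular to Top2a. For Mki67 the shares were 43.5% and 28.1% in sham and 11.1% and 9.63% in te2. For Ube2c they were 45.5% and 24.7% in sham and 3.96% and 3.92% in te2. Pcna and Tyms had the same order, while for some members, such as Kif11 and Mcm3, the groups overlapped. Sham luminal cells were also the shallower ones, and the part of depth or of RNA outside cells in these shares was not tested.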

How the data were processed

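Single-cell 3' libraries of 4 mouse ventral prostates were analysed from the raw UMI count tables that the authors deposited, 1 per animal, with genes as rows and cells as columns. Per the submitters' processing notes, kallisto 0.46.1, bustools 0.39.4, R 4.3.2, Seurat 5.0.1 and build GRCm39 were used. The notes give no role or order. How reads shared between near-identical genes were counted is not given in the sources used here. A gene missing from a table was entered as 0.

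Groups came from the labels. Counts were summed per library and gate (at least 20 cells in every library) and tested with edgeR 4.0.16 (R 4.3.3), with TMM factors, filterByExpr, the quasi-likelihood test, two-sided, Benjamini-Hochberg over all genes tested, FDR 0.05. SE is the log2 change over the square root of F. CPM uses the TMM-scaled total unless library totals are named. Doublets were called with scrublet in scanpy 1.11.5 and kept in the main result. Cells were thinned at random without replacement from a fixed seed. DESeq2 1.42.0 was an alternative. The edgeR script was tested on simulated counts. Small edgeR p-values rest on a spread pooled over genes, and 2 animals a group limit what they say of variation between animals.

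The 34 members, the lists and the tests were chosen with earlier results of these data known. Named in full were all members past FDR 0.05, and the others by range and count or as examples. From the other lists, at most the 5 of smallest p per class were named. Rrm1, Ccnb1, Mki67, Top2a and further members below the threshold were described after their values were seen. Promoter windows are RefSeq's, on GRCm38.p6. No coordinates were taken for the counts. Intervals and floors cover counting error only. Replicate numbers do not pair the animals: the correlation of same-numbered deviations was between -0.05 and 0.02 in the 5 classes.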

Additional observations from a re-analysis of the deposited data

How the results depend on the processing

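Of the counts of called members, 12 in luminal cells became 3 with DESeq2, 7 with gates at 2 times their threshold and 4 without cells with at least 3 UMIs of the 5 genes. They ran from 6 to 18 with each library left out. The basal count of 1 became 0 with DESeq2, 0 with a replicate block and 0 without cells in more than 1 gate. It became 2 with at most 10% mitochondrial counts, without called doublets, or with the luminal gate at 5%, and ran from 0 to 1 with libraries left out. The proximal count of 2 became 0 with DESeq2, 1 with a replicate block and 0 without cells with at least 3 UMIs of the 5 genes, and ran from 0 to 2 with libraries left out. In proximal cells DESeq2 gave Cenpf no adjusted p, so it could not call that gene. The replicate block gave 13 luminal calls. The labels give no pairing of same-numbered animals, and whether a call lost under the block is a weaker effect was not tested. The cause of these changes was not tested.

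Against the mean of the other classes, library totals alone gave 8 luminal calls in place of 5, 5 basal in place of 2 and 2 macrophage in place of 1. Without cells in more than 1 gate, fibroblast calls became 1 and macrophage calls 2. With libraries left out, the counts ran from 2 to 5 (luminal), 0 to 2 (basal), 0 to 1 (fibroblast), 0 to 1 (macrophage) and 0 to 3 (proximal). For the response minus the luminal one they ran from 0 to 1 in basal and in proximal cells.

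The luminal difference of 0.120 percentage points in cells with at least 3 UMIs became 5.71 with no thinning, 0.960 at 2000 UMIs and 0.790 with at least 2 UMIs. The proximal 0.747 became 3.50 with no thinning and 1.42 at 2000 UMIs. At 2000 UMIs, basal gave 0.738, fibroblast -15.8 (3 cells in sham replicate 2) and macrophage 1.39. Macrophage gave 0.249 with no thinning and fibroblast -0.478 with at least 2 UMIs. With libraries left out, the luminal difference ran from -0.319 to 0.559. Ube2c in luminal cells reversed to -0.0074 without cells with at least 3 UMIs of the 5 genes, a setting that took out more te2 than sham cells.

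Of the 235 values for single genes under alternatives, 183 kept direction and call, 51 kept direction alone and 1 reversed. DESeq2's scaling moved the median of all genes from 0.09 to -0.15 in basal and from 0.06 to -0.14 in proximal cells. The luminal gate at 5%, the 3000 UMI minimum and the setting without counted cells were chosen after seeing the data. Minimums of 1000 UMIs in basal and macrophage cells, 3000 UMIs outside luminal cells and the proximal gate at 2 times its threshold were not run, with fewer than 20 cells in a library. Thinned sums left no member tested in the fit of all classes. Depth limited the classes other than luminal: 15 (basal), 13 (proximal), 32 (fibroblast) and 33 (macrophage) members did not pass the filter on low counts.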
